A study of Mus musculus with 4 samples.

Results

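The genes described here are 48 regulators and components of mitosis, taken as the rows of a deposited count table of 45706 mouse genes whose Ensembl identifiers carry the chosen symbols in GENCODE M21 (GRCm38). They cover mitotic kinases and cyclins, 2 transcription factors, the spindle assembly checkpoint, anaphase onset, the chromosomal passenger complex, kinetochore, spindle, cytokinesis and mitotic chromosome genes. Kinesins were left out by the rule, although Cenpe, which was kept, is itself a kinesin-like motor. The RNA came from cells labelled medial basal radial glia, taken at E18.5 from C57BL/6JOlaHsd mice of genotype Tubb-GFP/+, with the dye DiI named in the sample titles. There was a single group of 4 libraries, so no condition could be compared with another, and every value below is a level or a spread within that group. The labels give neither the way reporter and dye were used nor whether the libraries stem from separate or pooled animals, so p-values reflect only how these 4 samples spread, and that spread may be technical.

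At mitotic entry, cyclin B binds Cdk1, and the active kinase drives chromosome condensation and spindle assembly. The checkpoint then holds the anaphase-promoting complex inactive until kinetochores are attached, after which cyclin B and securin are degraded, separase opens the cohesin ring and the central spindle directs cytokinesis. Most of these genes are transcribed late in the cell cycle. In developing cortex the transcripts of such genes mark dividing progenitors, and neurons are not known to divide. The cells that gave each transcript in these libraries, which also hold neuronal transcripts, were not determined. Basal radial glia are progenitors that lack contact with the ventricle and keep a basal process.

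Library totals lay between 26540656 and 34837657 counts, and between 23128 and 23900 genes had a count. Levels are given in TPM, the share of transcripts per gene after division by gene length, here the merged exons, computed anew from the counts. The label was checked with marker lists. All 7 radial glial markers were above 1 TPM, with a summed level of 4727 to 5712 TPM, and so were 6 of 7 basal radial glial markers, summing to 515 to 697 TPM, where 75.7% of protein-coding genes tested were above 1 TPM. Hopx, the gene in the study's title, stood at 3.03 ± 0.414 TPM, Sox2 at 30.1 ± 4.10 TPM and Eomes, an intermediate progenitor factor, at 18.9 ± 1.24 TPM (SD, n = 4 each). On the opposite strand, Hopxos overlaps 27.2% of the exonic bases of Hopx, so the level of Hopx is uncertain. Transcripts of other cells were also present: 6 of 6 neuronal markers summed to 9364 to 10455 TPM, with Tubb3 at 6691 ± 496 TPM (SD, n = 4), and 6 of 6 erythroid markers to 2377 to 4203 TPM. Intermediate progenitor markers (6 of 6 above 1 TPM) summed to 1246 to 1418 TPM, interneuron markers (5 of 6) to 70.4 to 130.4 TPM and oligodendrocyte precursor markers (5 of 5) to 43.6 to 51.7 TPM. Microglial markers (5 of 7) summed to 17.9 to 39.3 TPM, mural markers (2 of 4) to 7.47 to 11 TPM and endothelial markers (2 of 6) to 4.06 to 6.85 TPM. No marker of these lists was at 0. In bulk RNA of this kind, fewer dividing cells and less RNA per cell cannot be told apart.

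Genes expressed in mitosis often carry a cell cycle homology region (CHR) close to their transcription start, a short element bound by the MuvB core of the DREAM and B-Myb complexes, together with CCAAT boxes bound by NF-Y. The letters of both elements were looked up on both strands in RefSeq promoter windows of build GRCm38.p6, which run from 250 bases before to 50 after each start. The CHR letters searched were TTTGAA and TTCGAA, with TTCAAA as the reverse strand form of the first, and the CCAAT letters were CCAAT and its reverse strand form ATTGG. Windows were found for 40 of the 48 genes, 43 windows in all, and the other 8 genes, namely Aurkb, Smc4, Cdc25c, Incenp, Foxm1, Spc24, Ccna2 and Tpx2, have no window here. CHR letters stood in 31 of the 43 windows (72.1%), against 6316 of all 32851 windows (19.2%). Within 50 bases of the start they stood in 28 windows (65.1%), against 1743 of all windows (5.31%). CCAAT letters stood in 33 windows (76.7%), against 37.4% of all, and 2 or more copies in 22 windows (51.2%), against 11.7%. Both kinds were held by 29 windows (67.4%), against 7.52% of all windows. A match describes the letters in the window and is neither a shown binding site nor a cause of a level, and the median GC content was 59% in the windows of the mitotic genes against 52.67% in all.

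The stretches from 100 bases before to 30 after the start are shown for the 6 genes of highest TPM that combine CHR letters within 50 bases of the start with 2 or more CCAAT copies. Capitals mark the CHR letters and the CCAAT or ATTGG letters, and each stretch reads 5′ to 3′ along the gene's strand. They lie at chr7:131560270-131560399 on the plus strand (Bub3), chr3:89418262-89418391 on the minus strand (Cks1b), chr9:70421525-70421654 on the minus strand (Ccnb2), chr4:124936888-124937017 on the minus strand (Cdca8), chr2:69206184-69206313 on the minus strand (Spc25) and chr11:99024160-99024289 on the minus strand (Top2a).
Bub3: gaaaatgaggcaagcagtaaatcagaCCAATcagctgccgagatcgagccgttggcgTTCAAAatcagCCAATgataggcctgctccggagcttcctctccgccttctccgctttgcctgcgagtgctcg
Cks1b: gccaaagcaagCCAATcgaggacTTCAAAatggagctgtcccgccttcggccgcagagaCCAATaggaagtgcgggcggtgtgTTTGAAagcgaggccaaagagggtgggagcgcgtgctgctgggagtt
Ccnb2: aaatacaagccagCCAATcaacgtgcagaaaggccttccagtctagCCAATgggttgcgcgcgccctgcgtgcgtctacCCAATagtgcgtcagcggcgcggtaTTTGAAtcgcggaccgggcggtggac
Cdca8: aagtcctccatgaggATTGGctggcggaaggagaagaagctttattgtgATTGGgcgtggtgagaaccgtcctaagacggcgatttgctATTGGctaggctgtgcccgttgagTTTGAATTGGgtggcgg
Spc25: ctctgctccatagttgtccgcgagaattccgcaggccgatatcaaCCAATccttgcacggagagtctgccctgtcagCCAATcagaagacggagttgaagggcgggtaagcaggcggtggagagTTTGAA
Top2a: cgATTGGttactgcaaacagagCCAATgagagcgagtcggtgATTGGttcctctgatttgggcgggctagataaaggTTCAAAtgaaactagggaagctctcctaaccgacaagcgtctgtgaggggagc
In Ccnb2 and Cdca8 the CHR letters begin after the start, at bases 4 and 13 counted from 0 at the start, and in Spc25 at base 24. In Bub3 and Top2a they begin before it, at -43 and -23. Cks1b holds the letters at -77 and again closer to the start. Ccnb2 shows 3 CCAAT copies spaced along the stretch, and in Cdca8 the last ATTGG begins with the final base of the CHR letters, so that the run TTTGAATTGG holds both and counts for both.

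No CHR letters were found in the windows of 12 genes: Birc5, Ccnb1, Cenpe, Cit, Cks2, Fzr1, Mad2l1, Mybl2, Ncaph, Nuf2, Nusap1 and Pttg1. CCAAT letters were also missing from 8 of these 12 windows, leaving Ccnb1, Cenpe, Cks2 and Fzr1 with CCAAT alone. Pttg1 and Ncaph had the highest TPM among the genes with neither. Their stretches, at chr11:43425952-43426081 on the minus strand and chr2:127133925-127134054 on the minus strand, carry no capitals. In GENCODE M21 Pttg1 runs to base 43426251, past the end of its window, so letters near that end were not searched. Of the genes shown with CHR letters, Cdca8, Cks1b and Bub3 are also annotated there as reaching back before the start used. They reach to base 124939311 for Cdca8, which lies outside its window, 89418383 for Cks1b and 131560222 for Bub3.
Pttg1: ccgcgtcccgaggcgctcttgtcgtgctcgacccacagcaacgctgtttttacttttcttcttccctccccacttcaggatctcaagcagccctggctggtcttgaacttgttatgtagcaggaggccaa
Ncaph: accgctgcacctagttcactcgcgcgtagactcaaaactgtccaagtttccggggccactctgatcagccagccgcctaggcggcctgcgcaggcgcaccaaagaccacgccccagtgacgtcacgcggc
The 28 genes with CHR letters in a window had a median level of 16.0 TPM and ranged between 1.58 and 118 TPM. The 12 without them had a median of 15.4 TPM and ranged between 0.660 and 27.8 TPM. The medians of these levels lie close to each other, and no test was made between the 2 sets.

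**Figure D1:**
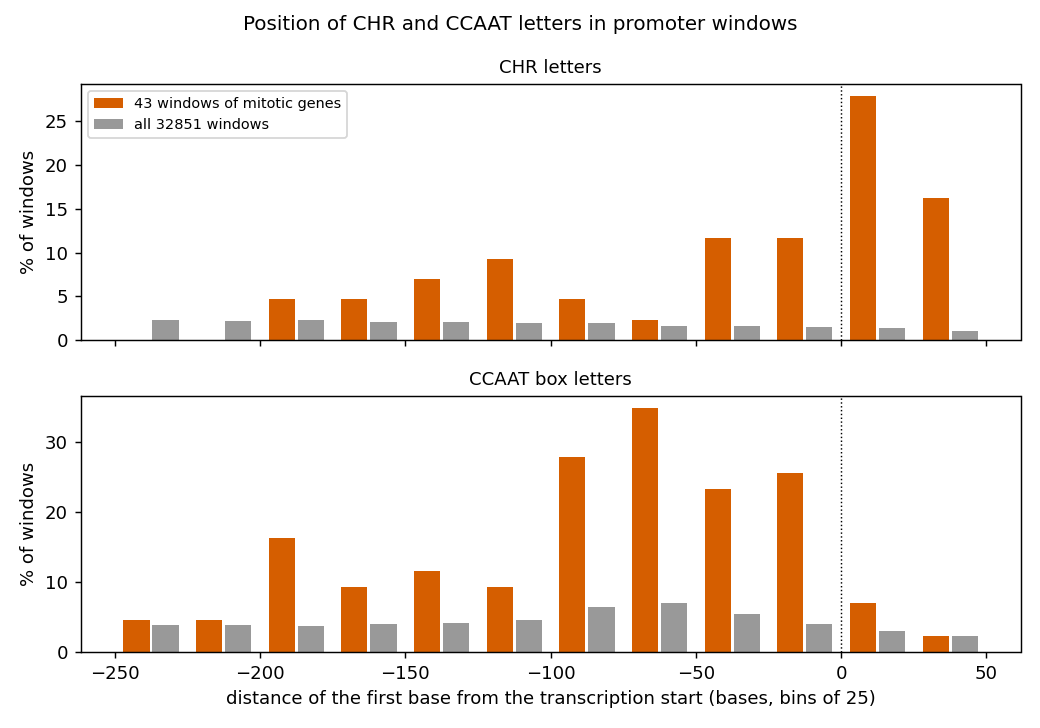
Share of promoter windows (percent, vertical axis) with CHR letters (upper panel) or CCAAT letters (lower panel) beginning in each bin of 25 bases, by distance from the transcription start in bases, for the 43 windows of mitotic genes (orange) and all 32851 windows (grey). The orange bars for CHR are highest in the bins after the start, reaching 27.9%, and those for CCAAT between 100 and 50 bases before it, reaching 34.9%.

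Nearly all 48 genes were expressed above a low level. In edgeR's quasi-likelihood test with Benjamini-Hochberg adjustment over all 20991 genes with at least 10 counts, 47 of the 48 were above 1 TPM, 0 were below it and 1, Mybl2, was not called. DESeq2 also placed 0 below 1 TPM, and at an unadjusted p under 0.05 edgeR placed 1 there, Mybl2. The background for this count is 65.9% of all genes tested and 75.7% of the 15401 protein-coding ones above 1 TPM, with 12.1% and 11.5% below it. Against 10 TPM, 31 of the 48 (64.6%) were above, 16 (33.3%) were below and Mad2l1 was not called. The background was 35.2% above and 58% below among all genes, and 45.2% above and 48.7% below among protein-coding genes. The median of the 48 levels was 15.0 TPM, against 9.0 TPM for protein-coding genes with at least 10 counts, and 31 of the 48 lay above that level of protein-coding genes.

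**Figure D2:**
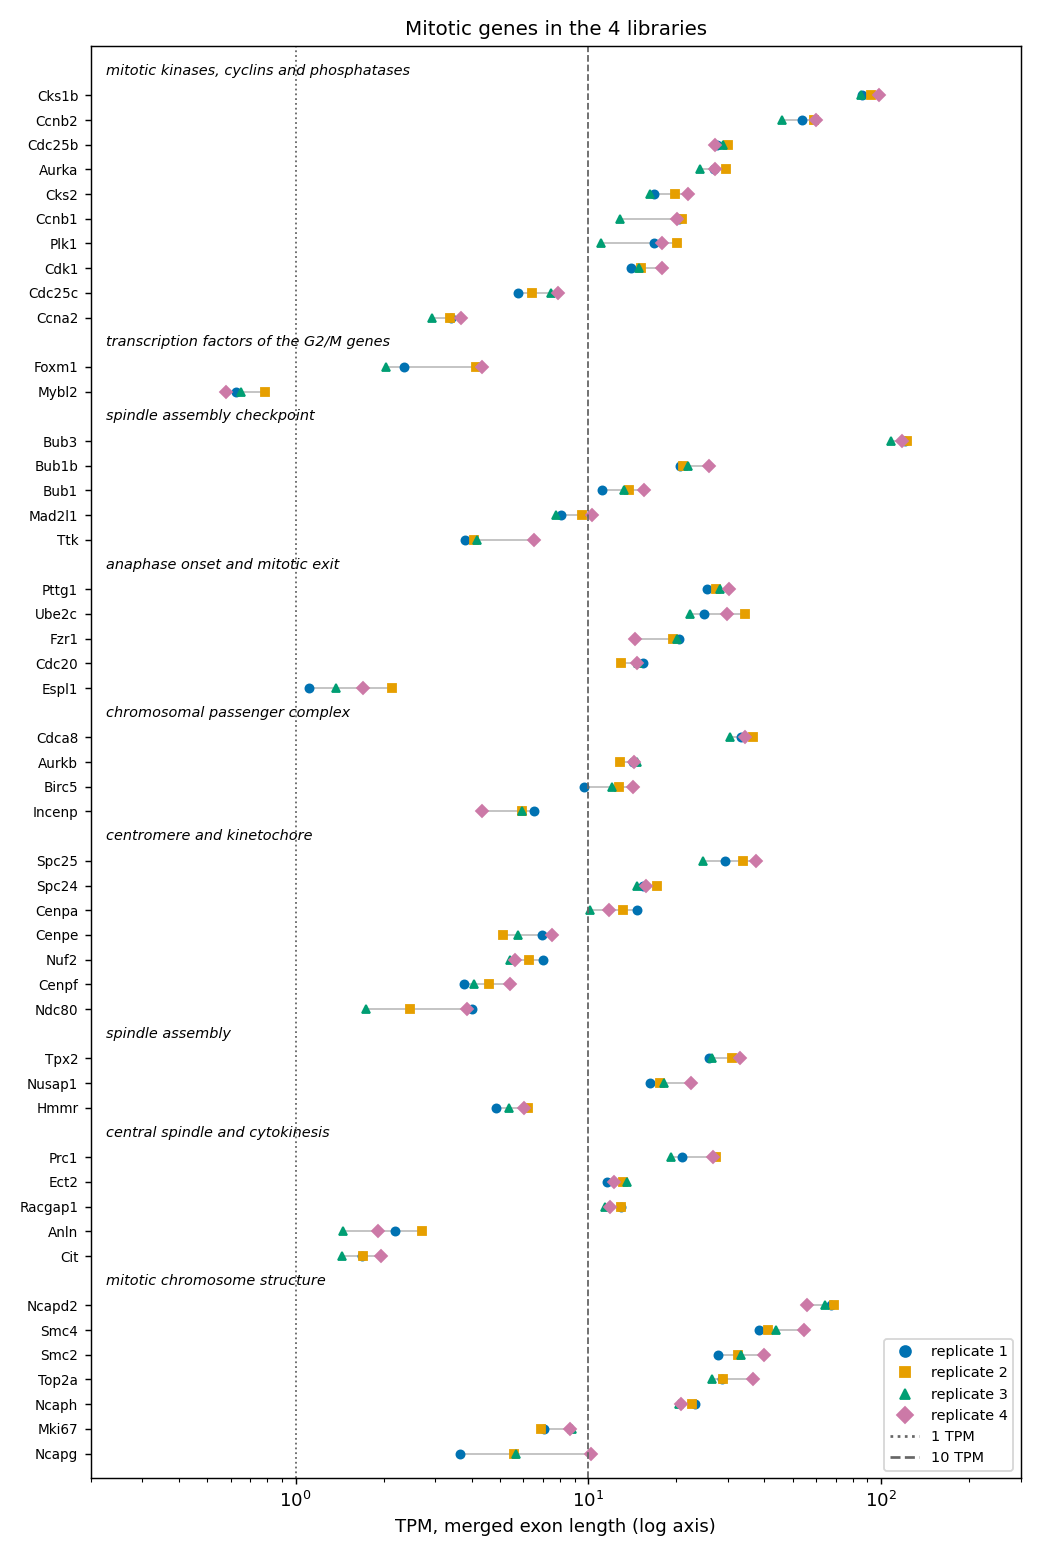
Level of each of the 48 mitotic genes in each of the 4 libraries (TPM by merged exon length, log axis), grouped by role and ordered by mean within a role, with a symbol for each library and a line from the lowest to the highest. Dotted and dashed lines mark 1 and 10 TPM: Bub3 sits highest at 108 to 123 TPM and Mybl2 lowest at 0.577 to 0.786 TPM.

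The mitotic kinases, cyclins and their partners were among the higher groups, with 8 of 10 above 10 TPM and a median of 18.6 TPM. Ccnb2, a B-type cyclin, stood at 53.6, 59.3, 45.8 and 60.3 TPM in replicates 1 to 4 (mean 54.7 ± 6.63, SD, n = 4). Ccnb1, the B-type cyclin required for mitotic entry, stood at 20.4, 20.9, 12.9 and 20.1 TPM (mean 18.6 ± 3.81), and Ccnb2 was thus the higher B-type cyclin in every library by merged exons. The order depended on the length: in the authors' deposited TPM, which divides by the whole gene span, Ccnb2 averaged 21.2 TPM and Ccnb1 34.7 TPM. Ccna2, cyclin A2, which acts in S phase and at the entry to mitosis, was far lower, at 3.39, 3.37, 2.93 and 3.69 TPM (mean 3.35 ± 0.311). Replicate 3 held the lowest value of all 3 cyclins, with Ccnb1 set well apart from its other libraries. Cks1b, a small Cdk-binding subunit, was at 86.2, 92.4, 85.6 and 98.9 TPM (mean 90.8 ± 6.19), while its paralog Cks2 averaged 18.7 ± 2.66 TPM (SD, n = 4).

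Cdk1 itself, the kinase partner of these cyclins, was at 14, 15.1, 14.9 and 17.8 TPM (mean 15.5 ± 1.64, SD, n = 4). Cdc25b, a phosphatase that activates Cdk1 and is known for its part in neurogenic divisions, was at 27.6, 30.1, 29 and 27.1 TPM (mean 28.4 ± 1.35). Relative to its mean, Cdc25b varied least of all 48 genes. Cdc25c, a related phosphatase, averaged 6.88 ± 0.962 TPM and was called below 10 TPM. Aurka, the centrosomal Aurora kinase, was at 26.9 ± 2.20 TPM (SD, n = 4). Plk1, a kinase of centrosome maturation and mitotic progression, was at 16.7, 20.1, 11.1 and 17.9 TPM (mean 16.5 ± 3.84), low in replicate 3 as Ccnb1 was. In annotation, 23.4% of the 50-base words of Ccnb1 and 29.7% of those of Cks2 occur in other genes as well, mainly the pseudogenes Ccnb1-ps and Gm15452, and 10.4% of those of Plk1, so reads of these genes may have been split by the counting. With the length of the principal transcripts in place of merged exons, Ccnb2 averaged 35.1 TPM, Plk1 10.5 TPM, Cks2 12 TPM and Cdc25c 11.1 TPM. Plk1 (edgeR adjusted p = 0.596) and Cks2 (edgeR adjusted p = 0.107) were then no longer called above 10 TPM, and Cdc25c was not called below it. For Ccnb2, Plk1 and Cks2 both lengths are the same, at 1531, 2199 and 692 bases. Their lower values come from the TPM scale, which depends on the lengths of all genes. On the opposite strand, Exosc9 overlaps 12.5% of the exonic bases of Ccna2, and Gm3550 12.7% of those of Cdc25c, so both levels are uncertain.

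The transcription factors of late cell cycle genes were the lowest group, both below 10 TPM. Foxm1, a forkhead activator of G2 and M phase genes, was at 2.35, 4.12, 2.04 and 4.32 TPM in replicates 1 to 4 (mean 3.21 ± 1.18, SD, n = 4). Mybl2, which encodes B-Myb, was at 0.627, 0.786, 0.652 and 0.577 TPM (mean 0.660 ± 0.0896), from 26, 41, 29 and 22 counts. Foxm1 thus split into a pair of higher and a pair of lower libraries, while Mybl2 was low in all 4 and above only 16.5% of protein-coding genes with at least 10 counts. In edgeR's test Mybl2 had a log2 level of -0.60 against 1 TPM with an adjusted p of 0.0585 (unadjusted p = 0.0462). Mybl2 was the only one of the 48 not called above 1 TPM. Of its 50-base words, 19.3% occur in other genes, mainly Gm3320. It was called below 1 TPM with the longest transcript (edgeR adjusted p = 0.0418) or the principal transcripts (edgeR adjusted p = 0.0114) as length.

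The spindle assembly checkpoint held the highest gene of all. Bub3, a WD40-repeat protein that brings Bub1 and Bub1b to kinetochores, was at 121, 123, 108 and 118 TPM (mean 118 ± 6.61, SD, n = 4), above 91.1% of protein-coding genes with at least 10 counts. Bub1, a kinetochore kinase, was at 11.2, 13.8, 13.2 and 15.5 TPM (mean 13.4 ± 1.78), and Bub1b, the BubR1 protein that inhibits Cdc20, at 20.6, 21.1, 21.9 and 25.9 TPM (mean 22.4 ± 2.39). Replicate 4 was highest for Bub1 and Bub1b, but not for Bub3. Mad2l1, which encodes the Mad2 inhibitor of Cdc20, averaged 8.91 ± 1.19 TPM. By merged exons it could not be placed on either side of 10 TPM (edgeR adjusted p = 0.108), although without replicate 4 it was called below (edgeR adjusted p = 0.0354). The call also turned with the length. It was below with the longest transcript (edgeR adjusted p = 0.00184). It was above with the whole gene span (edgeR adjusted p = 8.54e-09) and without length correction (edgeR adjusted p = 1.11e-07). Ttk, the Mps1 kinase at the top of the checkpoint, was at 3.79, 4.08, 4.17 and 6.54 TPM (mean 4.65 ± 1.27), with replicate 4 standing clear of the other 3. With principal transcripts as length Bub3 averaged 238 TPM, since its merged exons span 7006 bases and its principal transcripts 2218, and Bub1 was no longer called above 10 TPM (edgeR adjusted p = 0.208).

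Of the genes of anaphase onset and mitotic exit, 4 of 5 were above 10 TPM. Cdc20 and Fzr1 encode the early and late activators of the anaphase-promoting complex. Cdc20 was at 15.4, 12.9, 14.8 and 14.7 TPM (mean 14.5 ± 1.06, SD, n = 4), and Fzr1, the Cdh1 protein that also acts in G1 and in neurons, at 20.5, 19.4, 20.1 and 14.4 TPM (mean 18.6 ± 2.82). Replicate 4 was the low library for Fzr1 and lay near the mean for Cdc20, so the 2 activators met there. Of the 50-base words of Cdc20, 10.6% occur in other genes, mainly Gm7856, so its reads may have been split by the counting. Ube2c, the ubiquitin-conjugating enzyme of the complex, was at 24.8, 34.4, 22.2 and 29.7 TPM (mean 27.8 ± 5.40). Securin and the protease it holds inactive were far apart: Pttg1 averaged 27.8 ± 2.07 TPM and Espl1, separase, was at 1.11, 2.13, 1.38 and 1.71 TPM (mean 1.58 ± 0.440). Of the exonic bases of Ube2c 22.8% overlap Tnnc2 on the opposite strand, and without strand information reads of the 2 genes cannot be told apart there. With principal transcripts as length Ube2c averaged 47.9 TPM, Pttg1 46.2 TPM and Cdc20 9.65 TPM, which placed Cdc20 on neither side of 10 TPM (edgeR adjusted p = 0.638).

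The 4 subunits of the chromosomal passenger complex, which corrects faulty attachments and later moves to the midzone, were present at unequal levels. Cdca8, the Borealin subunit, was highest at 33.7 ± 2.59 TPM (SD, n = 4). Aurkb, the kinase of the complex, was at 14.2, 12.8, 14.7 and 14.3 TPM (mean 14 ± 0.815), and Birc5, survivin, at 9.69, 12.8, 12.1 and 14.2 TPM (mean 12.2 ± 1.90). Incenp, the scaffold, was the lowest at 6.53, 5.93, 5.96 and 4.35 TPM (mean 5.69 ± 0.939) and was called below 10 TPM. Aurkb varied little between libraries, Birc5 was lowest in replicate 1, and Incenp was lowest in replicate 4. The call of Birc5 above 10 TPM (edgeR adjusted p = 0.0256) was kept without replicate 1 and lost without replicate 2, 3 or 4, where the adjusted p was 0.0799, 0.0647 or 0.116. The annotation matters here: with principal transcripts Birc5 averaged 28.0 TPM and Cdca8 68.7 TPM, against 14 TPM for Aurkb.

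Centromere and kinetochore genes were a low group, with 3 of 7 above and 4 below 10 TPM and a median of 6.33 TPM. The Ndc80 complex, which binds microtubules, has 4 subunits, and they differed widely. Spc25 was at 29.3, 33.8, 24.6 and 37.5 TPM (mean 31.3 ± 5.61, SD, n = 4), Spc24 at 15.7 ± 1.02 TPM and Nuf2 at 6.08 ± 0.730 TPM. Ndc80, the subunit that gives the complex its name, was lowest at 3.99, 2.46, 1.75 and 3.85 TPM (mean 3.01 ± 1.09), with replicates 1 and 4 above replicates 2 and 3. Cenpa, the histone H3 variant of centromeric chromatin, averaged 12.4 ± 1.94 TPM and was called above 10 TPM, except without replicate 1 (edgeR adjusted p = 0.0676). The large fibrous proteins were lower: Cenpe, the kinesin-like motor, averaged 6.33 ± 1.1 TPM and Cenpf 4.45 ± 0.725 TPM (SD, n = 4 each). With principal transcripts as length the Ndc80 subunits kept their order, at 53.6 TPM for Spc25, 19.0 TPM for Spc24, 11 TPM for Nuf2 and 5.69 TPM for Ndc80, while Cenpa averaged 31.9 TPM.

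Among the spindle assembly genes, Tpx2, a Ran-regulated activator of Aurora A, was highest at 25.9, 31.1, 26.5 and 33.1 TPM (mean 29.1 ± 3.50, SD, n = 4). Nusap1, a microtubule-bundling protein, was at 16.2, 17.6, 18.2 and 22.4 TPM (mean 18.6 ± 2.67), and Hmmr, a spindle pole protein, at 4.84, 6.25, 5.37 and 6.03 TPM (mean 5.62 ± 0.645). Replicate 1 was the lowest library for all 3, and replicate 4 the highest for Tpx2 and Nusap1.

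Of the 5 cytokinesis genes, Prc1, Ect2 and Racgap1 were called above 10 TPM by merged exons, and Anln and Cit below it. Prc1, which bundles the antiparallel microtubules of the midzone, was at 20.9, 27.3, 19.2 and 26.7 TPM (mean 23.5 ± 4.09, SD, n = 4). Ect2, the exchange factor that activates RhoA, averaged 12.6 ± 0.872 TPM, and Racgap1, its centralspindlin partner, 12.3 ± 0.770 TPM, almost the same level by merged exons, but 10.7 and 18.7 TPM with principal transcripts as length. Anln, the ring scaffold anillin, was at 2.18, 2.71, 1.45 and 1.92 TPM (mean 2.06 ± 0.525), and Cit, citron kinase, whose loss disturbs cytokinesis of neural progenitors in rodents, at 1.69, 1.69, 1.45 and 1.97 TPM (mean 1.70 ± 0.213). Both were called above 1 and below 10 TPM by merged exons, but with the whole gene span as length Anln was not called on either side of 1 TPM (edgeR adjusted p = 0.198) and Cit was called below it. Replicate 3 was lowest for Prc1, Anln, Racgap1 and Cit, and replicate 1 for Ect2. Of the exonic bases of Prc1, 11.1% overlap Rccd1 on the opposite strand, and with principal transcripts as length Prc1 averaged 41 TPM and Ect2 was no longer called above 10 TPM (edgeR adjusted p = 0.27).

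Mitotic chromosome genes had the highest median of the 9 roles, 30.2 TPM, with 5 of 7 above 10 TPM. Ncapd2, a HEAT-repeat subunit of condensin I, was at 67.3, 69.1, 64.6 and 55.8 TPM (mean 64.2 ± 5.92, SD, n = 4). The ATPase subunits shared by both condensins followed: Smc4 at 38.5, 41.3, 43.9 and 54.4 TPM (mean 44.5 ± 6.97) and Smc2 at 27.7, 32.5, 33.3 and 39.8 TPM (mean 33.4 ± 4.97). The 2 ATPase subunits moved alike across libraries, lowest in replicate 1 and highest in replicate 4, whereas Ncapd2 was lowest in replicate 4. Ncaph, the kleisin of condensin I, averaged 21.7 ± 1.35 TPM. Ncapg, the other HEAT-repeat subunit, was at 3.64, 5.59, 5.69 and 10.3 TPM (mean 6.29 ± 2.81). Relative to its mean, Ncapg had the widest spread of all 48 genes, with replicate 4 at the top and replicate 1 at the bottom. It was called below 10 TPM, but not with principal transcripts (edgeR adjusted p = 0.0969) or the longest transcript (edgeR adjusted p = 0.265) as length. Lcorl overlaps 13.4% of the exonic bases of Ncapg on the opposite strand. Top2a, the topoisomerase that untangles sister chromatids, was at 28.7, 28.9, 26.6 and 36.7 TPM (mean 30.2 ± 4.46). Mki67, the Ki-67 protein that coats mitotic chromosomes and is the common proliferation marker, was at 7.06, 6.91, 8.77 and 8.65 TPM (mean 7.85 ± 0.998) and was called below 10 TPM. With principal transcripts as length Smc2 averaged 21.8 TPM and Mki67 5.03 TPM. The length of Mki67 is 10061 bases either way, so its value moved with the TPM scale alone.

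The median over the 48 genes of log2(TPM + 1) was 4.0, 3.95, 3.92 and 4.01 in replicates 1 to 4 (mean 3.97 ± 0.043, SD, n = 4), and the summed level 964, 1040, 925 and 1072 TPM. The SD between libraries depended on the summary: it was 0.104 for the mean over the genes in place of the median, 0.0995 with the longest transcript as length and 0.109 in CPM. Of the single genes, 23 had their highest value in replicate 4, 15 in replicate 2, 7 in replicate 1 and 3 in replicate 3. The lowest value was in replicate 3 for 23 genes, in replicate 1 for 16, in replicate 4 for 5 and in replicate 2 for 4. Among 13779 protein-coding genes with at least 40 counts, 33.2% were highest in replicate 4, 19.1% in replicate 2, 24.6% in replicate 1 and 23.1% in replicate 3. The lowest value of these genes was in replicate 3 for 21.9%, in replicate 1 for 21.4%, in replicate 4 for 28.3% and in replicate 2 for 28.4%. The median deviation of the 48 genes from their own means on the log2 scale was -0.07, 0.06, -0.13 and 0.13 in replicates 1 to 4, against 0.00, -0.03, -0.00 and 0.01 for protein-coding genes.

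Marker levels moved between the libraries as well. Radial glial markers were highest in replicate 3 and lowest in replicate 1, and neuronal markers highest in replicate 1 and lowest in replicate 3, at 10455, 10181, 9364 and 9642 TPM in replicates 1 to 4. Microglial markers were lowest in replicate 4, at 17.9 TPM against 30.1 to 39.3 TPM in the others. Erythroid markers were highest in replicate 2, at 4203 TPM against 2377 to 2683 TPM. The part of these cells in the placement of the mitotic genes was not tested.

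**Figure D3:**
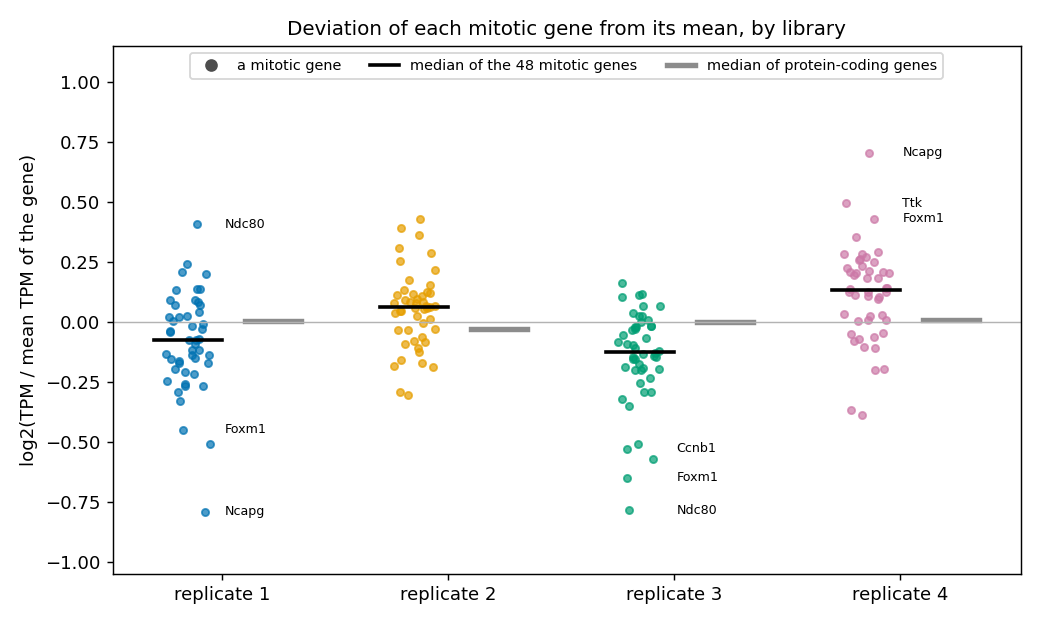
Deviation of each of the 48 mitotic genes from its own mean, log2(TPM / mean TPM), in each library, with 1 point a gene, a black bar for the median of the 48 and a grey bar for the median of protein-coding genes. The black bars lie at -0.07, 0.06, -0.13 and 0.13 in replicates 1 to 4, and Ncapg, Ndc80, Foxm1, Ttk and Ccnb1 lie at the edges.

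The coefficient of variation over the 4 libraries ran between 4.75% for Cdc25b and 44.6% for Ncapg, with a median of 13.5%. It exceeded the value that counting error alone gives in 47 of the 48, Mybl2 being the exception. The share of all genes exceeding that value was not computed, so this count does not set the 48 genes apart. Foxm1 (36.7%) and Ndc80 (36.2%) followed Ncapg, and Espl1 (27.8%), Ttk (27.4%), Anln (25.5%), Plk1 (23.4%) and Ccnb1 (20.6%) came next. When the spread of each gene was set against the trend for its abundance, edgeR called 0 of the 48 and 0 of 16706 genes tested (0%). At an unadjusted p under 0.05, 1 of the 48, Ncapg (edgeR unadjusted p = 0.00787, adjusted p = 0.967), and 769 of all genes (4.6%) passed. Without replicate 4, its highest library, Ncapg no longer passed.

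The relative levels of partners were compared within each library for 20 pairs, as log2((TPM + 1)/(TPM + 1)). By merged exons, in 17 pairs the sign was the same in all 4 libraries, with the first gene higher in 9 and lower in 8, and 3 pairs were mixed. The share of other gene pairs that keep 1 sign was not computed, so this count does not set these partners apart. With 4 libraries the exact permutation test, two-sided and by flipping signs, cannot go below p = 0.13, the value of all 17, which was 0.147 after adjustment over the 20 pairs, so no pair could reach 0.05. The widest gap was between securin and separase: Pttg1 over Espl1 was 3.64, 3.17, 3.62 and 3.53 in replicates 1 to 4 (mean 3.49 ± 0.22, SD, n = 4). Bub3 over Bub1 was 3.33, 3.06, 2.94 and 2.86 (mean 3.05 ± 0.21). Both ratios stayed far above their spread between libraries.

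Among related regulators, Ccnb2 over Ccnb1 was 1.35, 1.46, 1.76 and 1.54 on that log2 scale (mean 1.53 ± 0.17), Cdc25b over Cdc25c 1.91 ± 0.20, Cks2 over Cks1b -2.23 ± 0.098 and Aurkb over Aurka -0.89 ± 0.19 (SD, n = 4 each). Bub1b over Bub1 was 0.70 ± 0.10 and Mybl2 over Foxm1 -1.30 ± 0.41. Each of these 6 kept its sign in all libraries by merged exons, but in the deposited TPM Ccnb2 over Ccnb1 became -0.66 and Aurkb over Aurka 0.51. Both cyclins were set against their kinase: Ccna2 over Cdk1 was -1.92 ± 0.11, below 0 in all 4 libraries, while Ccnb1 over Cdk1 was 0.51, 0.45, -0.20 and 0.16 (mean 0.23 ± 0.32), positive in 3 of 4 (exact permutation p = 0.375, adjusted p = 0.395). The negative library was replicate 3, where Ccnb1 was low.

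Subunits of one complex were not at equal levels. Within condensin, Ncapd2 over Ncaph was 1.52 ± 0.10 and Smc2 over Smc4 -0.40 ± 0.056, the narrowest spread of the 20 pairs. Ncapg over Ncaph was -2.38, -1.84, -1.68 and -0.95 in replicates 1 to 4 (mean -1.71 ± 0.59), the widest spread. Within the Ndc80 complex, Spc25 over Spc24 was 0.93 ± 0.20 and Nuf2 over Ndc80 0.86 ± 0.35 (SD, n = 4 each), and each kept its sign in all libraries, though in the deposited TPM Spc25 over Spc24 became -0.05. In the passenger complex, Cdca8 over Aurkb was 1.21 ± 0.18 and Incenp over Aurkb -1.17 ± 0.24, both of 1 sign in all libraries.

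The remaining 3 pairs were Cdc20 and Fzr1, Racgap1 and Ect2, and Birc5 and Aurkb. Cdc20 over Fzr1 was -0.33 ± 0.25 and was above 0 in 1 of 4 libraries (exact permutation p = 0.25, adjusted p = 0.278). Racgap1 over Ect2 was 0.14, -0.02, -0.23 and -0.03 (mean -0.03 ± 0.15; exact permutation p = 0.625). Birc5 over Aurkb was -0.51, -0.00, -0.26 and -0.01 by merged exons (mean -0.20 ± 0.24), but 0.94 with principal transcripts as length, so its direction depended on the annotation.

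**Figure D4:**
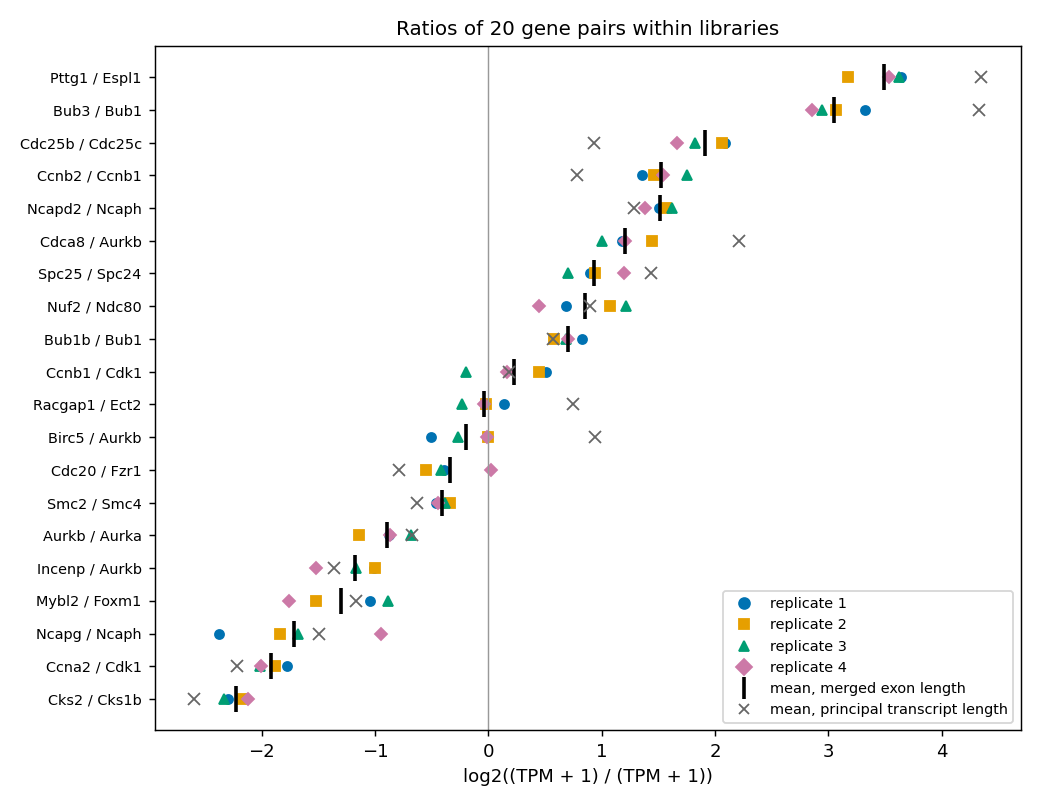
Log2 ratio of TPM + 1 within each library for the 20 gene pairs, first gene over second, with a symbol for each library, a black bar for the mean by merged exon length and a cross for the mean by principal transcript length. Pttg1 over Espl1 lies highest at 3.17 to 3.64 and Cks2 over Cks1b lowest at a mean of -2.23; the crosses of Birc5 over Aurkb and Racgap1 over Ect2 lie on the other side of 0 from the bars.

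The wider machinery of division was represented by 10 lists holding 112 other genes. Of these, 109 were above 1 TPM, 0 below and 3 not called, namely Sgo2a, Pkmyt1 and Nek2, and 72 (64.3%) were above 10 TPM in edgeR's test, against 31 (64.6%) of the 48 genes, 35.2% of all genes and 45.2% of protein-coding genes. Without the 15 S phase genes the share was 58 of 97 (59.8%). DESeq2 placed 0 of the 112 below 1 TPM, and so did edgeR at an unadjusted p under 0.05. The 13 core subunits of the anaphase-promoting complex were all above 10 TPM, with a median of 38.9 TPM, led by Anapc5 at 241 ± 15.3 TPM and Anapc11 at 150.0 ± 6.59 TPM (SD, n = 4 each). Cohesin and its regulators, which hold sister chromatids together, had a median of 21.9 TPM with 9 of 13 above 10 TPM, led by the ring subunits Smc1a at 166 ± 6.10 TPM and Smc3 at 112 ± 6.87 TPM. The core subunits of both complexes also act outside mitosis, the complex in G1 and in neurons and cohesin in interphase chromatin.

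The lists closest to the kinetochore genes were lower. The constitutive centromere network had a median of 8.62 TPM with 4 of 13 above 10 TPM, led by Cenpt at 79.0 ± 4.26 TPM and Cenpm at 36.7 ± 6.69 TPM (SD, n = 4 each). The outer kinetochore list had a median of 13.8 TPM with 8 of 14 above 10 TPM, led by Zwint at 235 ± 12.5 TPM, a kinetochore protein that is also abundant in neurons, and Ska2 at 63.4 ± 6.2 TPM. Condensin II had Ncaph2 at 123 ± 6.23 TPM, Ncapd3 at 11.3 ± 0.905 TPM and 2 of 3 genes above 10 TPM.

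Regulators of entry and transcription lay near the 48 genes. The entry brakes and phosphatases had a median of 10.7 TPM with 4 of 11 above 10 TPM, led by Arpp19 at 245 ± 19.7 TPM and Ensa at 154 ± 7.85 TPM (SD, n = 4 each), the inhibitors of the phosphatase PP2A-B55 that act downstream of the Greatwall kinase. The DREAM and MuvB list, whose core binds the CHR, had a median of 12.7 TPM with 5 of 10 above 10 TPM, led by Rbbp4 at 221 ± 15.0 TPM and Lin37 at 108 ± 9.89 TPM. Non-kinesin spindle assembly genes had a median of 28.5 TPM with 8 of 11 above 10 TPM, led by the GTPase Ran at 387 ± 30.7 TPM and the microtubule polymerase Ckap5 at 66.0 ± 6.27 TPM.

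The highest medians were those of cytokinesis and abscission, 70.4 TPM with 5 of 9 above 10 TPM, and of S phase, 51.2 TPM with 14 of 15. In the first, Sept2, a septin, averaged 310 ± 51.4 TPM and Tsg101, an ESCRT-I subunit, 221 ± 2.01 TPM (SD, n = 4 each). Septins and ESCRT proteins also act in cells that do not divide. In the second, Rrm2, a subunit of ribonucleotide reductase, averaged 233 ± 23.6 TPM and Mcm7, of the replicative helicase, 224 ± 5.61 TPM. The S phase median was 51.2 TPM against 15.0 TPM for the 48 mitotic genes, a difference that was not tested.

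**Figure D5:**
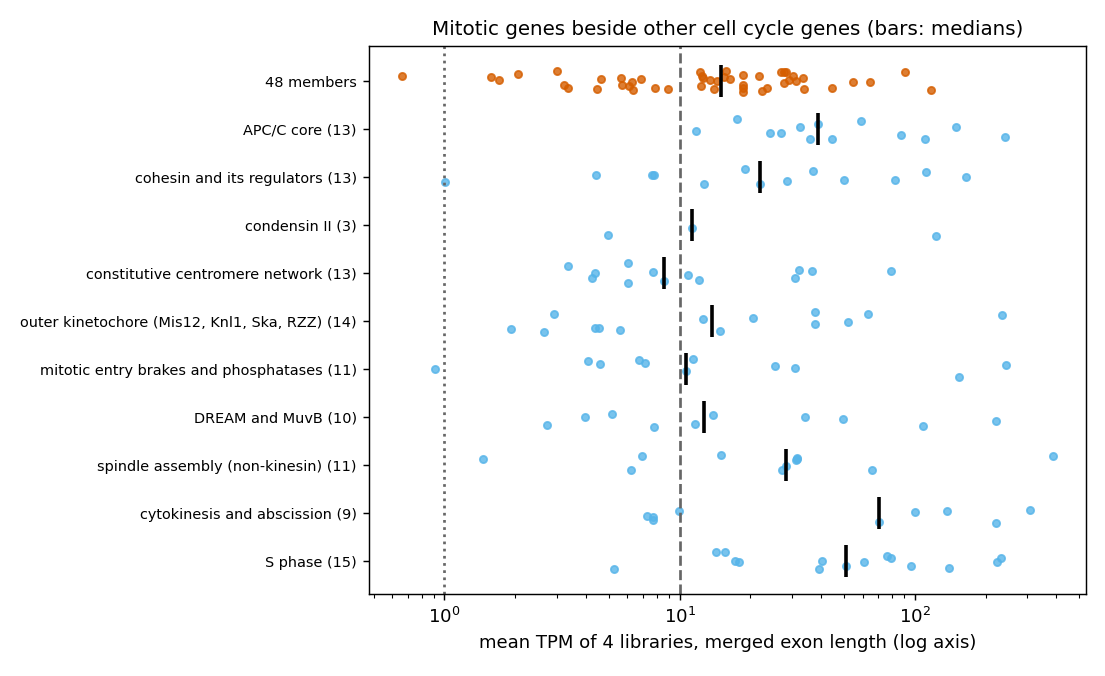
Mean level over 4 libraries (TPM by merged exon length, log axis) of each of the 48 mitotic genes (orange, top row) and of the genes of 10 other cell cycle lists (blue), with 1 point a gene, the number of genes in brackets and a black bar for the median. The bar of the 48 genes lies at 15.0 TPM, between 8.62 TPM for the constitutive centromere network and 70.4 TPM for cytokinesis and abscission.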

How the data were processed

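RNA was measured in 4 libraries of 1 group. Per the labels' protocols, poly-dT primed, template-switched cDNA was amplified and sheared before library preparation. Per the submitters' processing notes, bcl2fastq 2.19.1 and STAR 2.5.2b were used with GRCm38; the read counter, strandedness and annotation version are each not given in the sources used here. Whole reads per Ensembl gene make up the deposited counts, which were not normalised; 563 of 45706 identifiers, with 0.12% to 0.125% of the counts, had no match in GENCODE M21. The deposited TPM values followed the whole gene span: of 4291 genes, 95.3% matched it within 0.01 on the log2 scale, and 0.653% matched merged exons. They hold 15648 genes and lack Cks1b and Pttg1 of the 48. TPM was therefore recomputed from the counts with merged exon lengths.

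Each gene with at least 10 counts was tested two-sided against 1 and 10 TPM with a one-sample form of edgeR's quasi-likelihood F test (edgeR 4.0.16, R 4.3.3), with Benjamini-Hochberg adjustment over all genes and a threshold of 0.05; the null deviance was written out because edgeR's own function needs more than 1 coefficient. It was tested on simulated data. The test of spread took genes with 40 or more counts. Gene pairs used an exact sign-flip permutation test with a pseudocount of 1 TPM. The 48 genes, lists, pairs and tests were chosen with earlier results of these data known. All 48 genes could be named; of the other lists, the 2 genes of highest TPM, those called below 1 TPM, and, chosen after their values were seen, those not called. Of the markers, Hopx, Sox2, Eomes and Tubb3 were named. Errors are SDs, and PCR copies without molecular identifiers are not independent molecules. Sequences are from RefSeq. Alternatives were DESeq2 1.42.0, TMM and size-factor scaling, other gene lengths, no length, no filter, protein-coding genes alone, another pseudocount and leaving out each library; principal (APPRIS) transcript length, and the deposited TPM for pairs, were chosen after seeing the data.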

Additional observations from a re-analysis of the deposited data

Results flagged for a closer look

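Among 98 values tested for a single library far from the other 3, 4 stood out, where chance alone gives about 1 in 20, or 4.9. Ccnb1 was at 12.9 TPM in replicate 3, against 20.1 to 20.9 TPM in the others. Ttk was at 6.54 TPM in replicate 4, against 3.79 to 4.17 TPM. The summed level of erythroid markers was 4203 TPM in replicate 2, against 2377 to 2683 TPM. The median log2(TPM + 1) of the 5 genes of anaphase onset and mitotic exit was 3.97 in replicate 4, against 4.35 to 4.42; in replicate 4 the gene at that median was Cdc20, and Fzr1 had its lowest value there.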

How the results depend on the processing

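No paired analysis was possible because the libraries form a single group. TMM, DESeq2 size factors, the DESeq2 Wald test, no count filter and protein-coding genes alone changed no call of the 48 genes against 1 or 10 TPM. Leaving out a library kept 47 above 1 TPM and gave 30 above 10 TPM each time. Of all genes, 67.0% to 68.3% were then above 1 TPM and 35.9% to 36.6% above 10 TPM. The length used mattered more. The number below 1 TPM was 1 with the longest or the principal transcript and 2 with the gene span (0 by merged exons), and that of the 112 other genes was 2 with the gene span (0 by merged exons). Below 1 TPM were 14.5% of all genes with the longest transcript, 16.4% with the principal and 20.9% with the gene span. Without length correction (CPM), 9 genes lay below 10, against 16. With the gene span 43 of 46 were above 1 TPM, Anln and Cit being lost, against 69.8% of all genes. Genes above 10 numbered 29 (longest transcript), 26 (principal), 34 (CPM) and 22 of 46 (gene span). The median level of 3.97 became 3.84 as a mean over genes, 3.92 with the longest transcript, 4.04 with principal transcripts and 4.45 in CPM.

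Directions turned as follows, on the log2 scale. With the gene span, against 1 TPM, Cit was at -0.73, and against 10 TPM Cks2 was at -0.25, Bub1 at -0.57, Bub1b at -0.36, Nusap1 at -0.30, Ect2 at -1.23, Racgap1 at -0.014, Mad2l1 at 1.16 and Mki67 at 0.073. In CPM against 10, Cdc25c was at 0.11, Cks2 at -1.28, Mad2l1 at 1.25, Cdc20 at -0.22, Cenpe at 0.80, Cenpf at 1.13, Nuf2 at 0.30, Mki67 at 1.33 and Ncapg at 0.50. With principal transcripts, Cdc25c was at 0.16, Cdc20 at -0.053 and Nuf2 at 0.14, and with the longest transcript Birc5 at -0.087. Racgap1 over Ect2 became 0.21 (longest transcript), 0.34 (CPM), 0.75 (principal) and between -0.093 and 0.030 when 1 library was left out, positive without replicate 3, and Birc5 over Aurkb 0.94 (principal). In the deposited TPM, tried for pairs after seeing the data and possible for 18 of them, Ccnb2 over Ccnb1 became -0.66, Aurkb over Aurka 0.51, Spc25 over Spc24 -0.051 and Racgap1 over Ect2 1.05. These alternatives change the lengths divided by, over all genes, so a gene's TPM can move where its own length does not. The lengths in use in these cells were not measured. Calls against 10 TPM were lost, with no turn, by Tpx2 and Ncaph (gene span), Plk1, Hmmr and Cit (CPM), Plk1, Cks2, Bub1, Ect2 and Ncapg (principal) and Cdc25c, Cdc20 and Ncapg (longest). At an unadjusted p under 0.05, Prc1 joined Ncapg among the variable genes with TMM and Ndc80 joined it without replicate 2; without replicate 4 Ncapg was lost and Ccnb1, Ndc80 and Prc1 passed. After adjustment 0 were called in each. Depth limits Mybl2, with 118 counts in all, more than any other of the 48.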
